A study of Homo sapiens with 29 samples.

Results

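Tumours of the parental MDA-MB-231 line from mice given decitabine together with doxorubicin were compared with tumours of the same line from mice given vehicle. Sample titles assigned 4 libraries to each group, 8 of the 29 libraries in the series. MDA-MB-231 is an established human breast carcinoma line of the triple-negative class, that is, one without oestrogen receptor, progesterone receptor or HER2 amplification. In both groups 250000 parental cells had been injected orthotopically on both sides of SCID-beige mice, a strain without functional T or B lymphocytes and with impaired natural killer cells. Treatment began on day 6 after injection and lasted 26 days, as 2 cycles of 12 days with 2 rest days between them. Mice of the combination group received decitabine at 0.4 mg/kg on days 1 to 4 and 10 to 11 of each cycle and doxorubicin at 1 mg/kg on days 5 and 12. Vehicle mice received the solution alone at those times. Tumours from mice given decitabine alone (4 libraries) or doxorubicin alone (3 libraries) at the same doses and days were used for comparison, as were combination (3 libraries) and vehicle (4 libraries) tumours of the paclitaxel-resistant derivative of the line, which were started with 1500000 cells and treated from day 16.

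Decitabine is a deoxycytidine analogue that is phosphorylated in the cell and built into newly made DNA, where it traps DNA methyltransferases, so that methylation is lost as cells divide. Genes silenced by promoter methylation can then be transcribed, among them cancer-testis antigens and endogenous retroviral elements whose double-stranded RNA is sensed as viral and induces interferon-stimulated genes. Doxorubicin is an anthracycline that intercalates into DNA and traps topoisomerase II on cleaved DNA, and p53, where functional, answers such breaks. MDA-MB-231 carries mutant p53. DNA methylation was not measured here.

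RNA had been extracted from snap-frozen tumour and sequenced from the 3′ end of polyadenylated transcripts, so that a gene's count does not scale with its length. Total counts were 4959066 to 5382295 in the combination libraries and 4022389 to 4666413 in the vehicle libraries, so that every combination library was deeper than every vehicle library. Levels are given as CPM, that is, counts relative to a scaled library size on the usual per-million basis. Mitochondrially encoded messages took 3.74% to 4.24% of counts under the combination and 3.67% to 4.04% under vehicle. Vehicle 3 stood apart from the other parental libraries on the first principal component (score -41.43, against -9.08 to -3.374 for the other vehicle libraries and 1.813 to 27.96 for the combination). Of markers fixed for the cell line, the 7 genes listed as high summed to 5470 to 6530 CPM under the combination and 5510 to 6140 CPM under vehicle. Of the 7 listed as low, PGR had no count and ESR1 was at 0.351 CPM, but CDH1 (109.1 ± 43.7 CPM, SD, n = 4), KRT19 (395.4 ± 25.4) and GATA3 (31.9) were counted in the combination group at levels like those under vehicle (117.2 ± 36.4, 360.9 ± 24.2 and 30.5), so for those 3 markers the data went against the label.

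Of 13495 genes tested, 139 differed between combination and vehicle tumours at an adjusted p under 0.05 (edgeR quasi-likelihood test, Benjamini-Hochberg), which is 1.03% of those tested. These are referred to as called. Of them 87 (0.645% of genes tested) were higher and 52 (0.385%) lower, and the log2 change was 1 or more in size for 62 of the higher but 8 of the lower genes. Combination and vehicle libraries did not overlap in 1360 genes, 10.1% of those tested. In bulk tumour RNA, fewer cells of a type and less RNA per cell cannot be told apart. The number of calls depended on single libraries: it was 65, 55 or 80 without combination 1, 2 or 4, and 66 or 53 without vehicle 1 or 3. Of the 139 genes, 33 were called in all 8 fits that each left out 1 library, 29 of them higher and 4 lower.

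**Figure D1:**
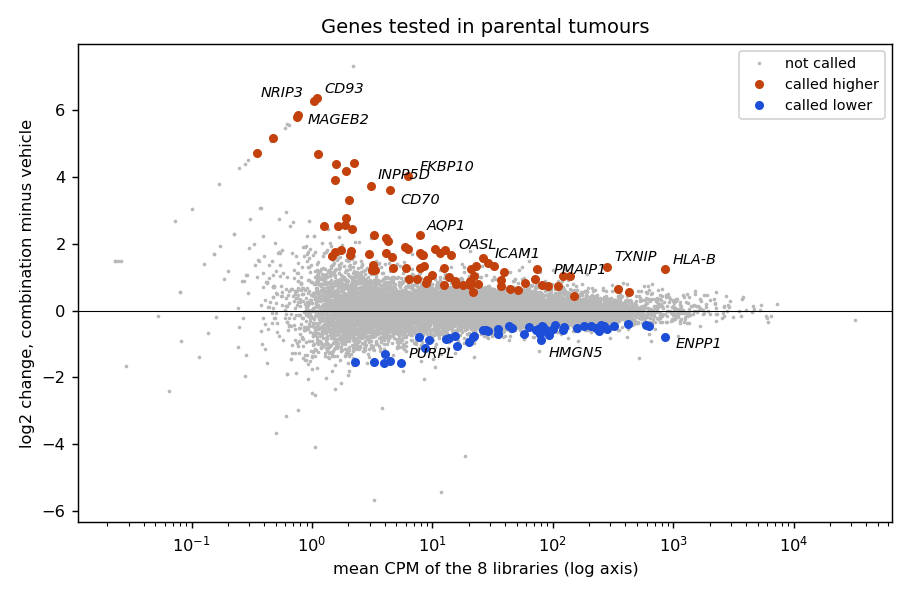
Fitted log2 change between combination and vehicle tumours (y axis) against mean CPM of the 8 libraries (x axis, log scale) for the 13495 genes tested, with the 87 genes called higher in orange and the 52 called lower in blue. Called higher genes reach log2 changes above 3 at low levels, whereas called lower genes lie between 0 and -2. Fitted values at the upper left belong to genes with no vehicle count and depend on the prior count of the fit.

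The genes with the greatest increases encoded proteins of varied function, most of them scarce under vehicle. FKBP10, a collagen chaperone of the endoplasmic reticulum, was at 6.703, 10.22, 10.9 and 19.79 CPM in combination libraries 1 to 4 and at 0.4637, 0.2173, 1.543 and 0.6844 CPM in vehicle libraries 1 to 4. The fitted log2 change was 4.03 (SE 0.54, edgeR adjusted p 2.0e-04). Groups without overlap were a condition for naming the 12 greatest changes per direction, so that separation adds no support for those genes. INPP5D, the inositol phosphatase SHIP1 of blood cells, was at 2.607, 5.502, 8.072 and 6.874 CPM against 0.4637, 0.6519, 0 and 0.4563 CPM (log2 change 3.74, SE 0.53, edgeR adjusted p 2.78e-04). CD70, a TNF family ligand of CD27, was at 5.399, 4.912, 9.484 and 13.12 CPM against 0.6955, 0.8692, 0.7717 and 0.2281 CPM (log2 change 3.62, SE 0.57, edgeR adjusted p 0.0012). For FKBP10 and CD70 combination 1 and 2 held the 2 lowest values of the group and combination 3 and 4 the others.

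The water channel AQP1 was at 8.192, 10.22, 17.15 and 16.46 CPM under the combination and at 2.315 to 3.014 CPM under vehicle (log2 change 2.27). SLC6A8, the creatine transporter, was at 5.399 to 9.235 CPM against 1.029 to 2.173 CPM (2.09). TCN1, a vitamin B12 binding protein, rose from 5.673 ± 1.80 to 19.85 ± 3.47 CPM, and SERINC2, a serine incorporator family member, rose from 2.701 ± 1.17 to 9.808 ± 0.766 CPM. AADACP1, a pseudogene, rose from 1.088 ± 0.559 to 5.425 ± 1.25 CPM. FKBP10, INPP5D, CD70, AQP1, SLC6A8, TCN1, SERINC2 and AADACP1 stayed called in each of the 8 fits that left out 1 library. RFX8, GMFG and VCAN did not. RFX8, a regulatory factor X family gene (log2 change 2.19), lost its call in every such fit but the one without combination 1 (highest adjusted p 0.0982). GMFG, an actin regulator of blood cells (1.89), lost it without combination 1 or 2 or vehicle 1, 3 or 4 (highest 0.107). VCAN, the matrix proteoglycan versican (1.73), lost it without combination 2 or vehicle 1 or 3 (highest 0.0657).

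**Figure D2:**
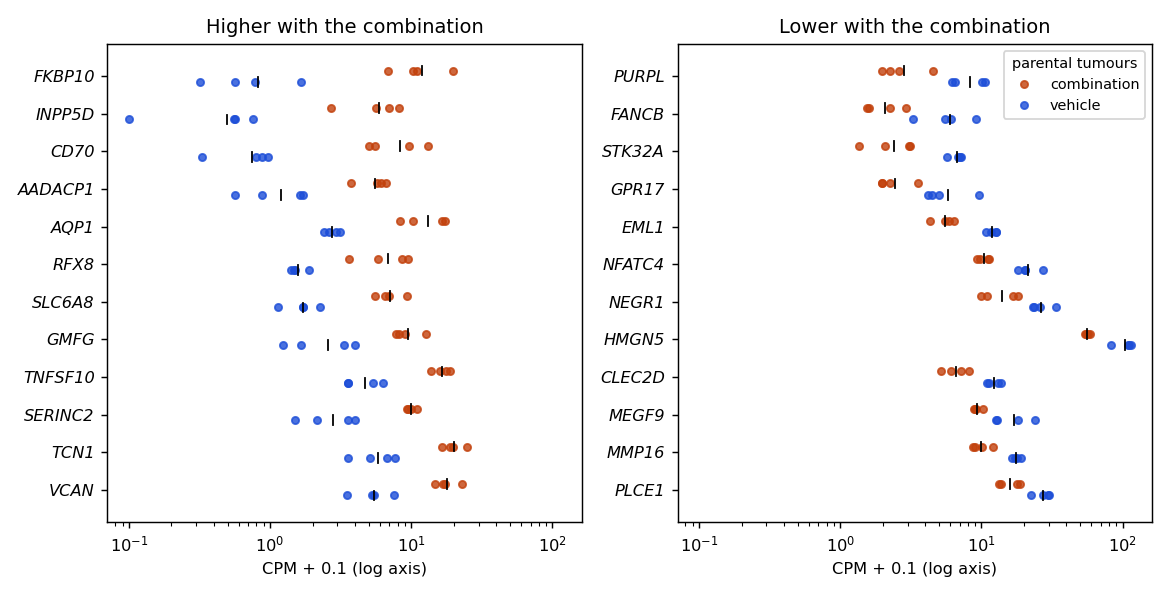
CPM + 0.1 per library (x axis, log scale) of the 12 genes with the greatest called increase (left) and the 12 with the greatest called decrease (right) among genes of at least 5 CPM in the higher group. Orange points are the 4 combination libraries, blue points the 4 vehicle libraries, and black ticks the group means; genes whose groups overlapped were left out by the choice of genes.

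Further genes with little spread, chosen after their values were seen, also rose. NOL4L, a nucleolar protein 4-like gene, was at 32.58, 32.81, 34.51 and 31.45 CPM under the combination and 13.21, 14.56, 11.06 and 12.55 CPM under vehicle, so that the gap between the groups was far wider than either group's range (log2 change 1.35, SE 0.18, edgeR adjusted p 2.0e-04). ALDH1A3, a retinaldehyde dehydrogenase, was at 12.71 ± 1.73 against 3.998 ± 0.995 CPM (1.66). CDH13, the GPI-anchored T-cadherin, was at 12.5 ± 1.70 against 3.869 ± 0.726 CPM (1.68), and CSPG4, the proteoglycan NG2, at 29.15 ± 2.91 against 12.42 ± 3.10 CPM (1.23). At a higher level TXNIP, the thioredoxin-interacting protein, was at 498.2, 279.4, 393.1 and 432.4 CPM against 95.98, 153.6, 145.1 and 250.3 CPM (log2 change 1.31). The groups for TXNIP came close without overlapping, and its call was lost in the fits without combination 1 or 4 or vehicle 1, 2 or 3 (highest adjusted p 0.084).

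A set of 6 called genes had no count in any vehicle library. NRIP3 had 42 counts over the 4 combination libraries (1.49, 2.161, 3.027 and 1.666 CPM), which with a floor of 3 counts over the vehicle group is at least 11.9-fold higher. CD93, a C-type lectin of endothelium and myeloid cells, had 44 counts (at least 12.5-fold higher) and SLC7A7, an amino acid transporter subunit, had 31 (at least 8.78-fold). MAGEB2, an X-linked cancer-testis antigen that healthy adult tissue expresses in testis, had 30 counts (at least 8.5-fold), TMEM204 had 19 (at least 5.38-fold) and SIX3, a homeobox gene, had 14 (at least 3.97-fold). BIRC7, the apoptosis inhibitor livin, had 60 counts against 2 (ratio of depth-scaled counts 25.5, exact 95% interval 6.76 to 215). LINC02154, a long noncoding RNA, had 44 counts against 1 (ratio 37.4, exact 95% interval 6.37 to 1510), and C15orf48 had 61 against 3 (ratio 17.3, exact 95% interval 5.64 to 86.1). Under decitabine alone the counts were 27 for NRIP3, 40 for CD93, 26 for SLC7A7, 15 for MAGEB2, 9 for TMEM204, 6 for SIX3 and 34 for BIRC7, and under doxorubicin alone 2, 0, 4, 1, 2, 3 and 4. LINC02154 had 4 counts under each of these treatments, and C15orf48 had 19 and 13. These bounds and intervals cover counting error only. NRIP3, CD93 and BIRC7 were called in all 8 fits that left out 1 library. SIX3 lost its call without vehicle 3 (adjusted p 0.0521), SLC7A7 without combination 2 or vehicle 1 or 3 (highest 0.0636) and C15orf48 without combination 1 or vehicle 2 or 3 (highest 0.109). TMEM204 kept its call only without combination 1 or 3 (highest 0.0915), and LINC02154 only without combination 3 or vehicle 4 (highest 0.0904). Of the cancer-testis list, 9 of 34 members in the table were tested and MAGEB2 was the only one called. Over all genes tested, 0.645% were called higher. The call of MAGEB2 was lost without vehicle 1 or 3 (highest adjusted p 0.0571). With no vehicle count, MAGEB2 passed the count filter only through other groups, so its call adds no support for the list.

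Sequence upstream of the start sites is shown because DNA methylation, which decitabine removes, sits on CG pairs. The 250 bases before the start held a median of 14 CG pairs in 57 called higher genes that matched the RefSeq promoter table (GRCh38.p14), 21 in 40 matched called lower genes and 21 in 10018 matched tested genes. Windows ranged from CG-poor to very CG-rich among the genes that rose. INPP5D (chr2:233060092-233060341, + strand) held 9 CG pairs, MAGEB2 (chrX:30215313-30215562, + strand) held 15 and ALDH1A3 (chr15:100879581-100879830, + strand) held 38. They are printed 5′ to 3′ in the direction of the gene with each CG pair in capitals.
INPP5D: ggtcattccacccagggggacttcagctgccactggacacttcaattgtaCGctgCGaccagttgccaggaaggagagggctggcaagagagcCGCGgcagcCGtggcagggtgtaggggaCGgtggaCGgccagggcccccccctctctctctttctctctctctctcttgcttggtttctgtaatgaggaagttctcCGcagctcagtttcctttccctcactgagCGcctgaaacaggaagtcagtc
MAGEB2: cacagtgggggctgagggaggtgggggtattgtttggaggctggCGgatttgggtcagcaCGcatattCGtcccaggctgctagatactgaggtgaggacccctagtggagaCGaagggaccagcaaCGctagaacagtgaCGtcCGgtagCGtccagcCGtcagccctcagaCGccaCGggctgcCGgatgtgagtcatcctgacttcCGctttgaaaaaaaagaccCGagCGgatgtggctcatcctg
ALDH1A3: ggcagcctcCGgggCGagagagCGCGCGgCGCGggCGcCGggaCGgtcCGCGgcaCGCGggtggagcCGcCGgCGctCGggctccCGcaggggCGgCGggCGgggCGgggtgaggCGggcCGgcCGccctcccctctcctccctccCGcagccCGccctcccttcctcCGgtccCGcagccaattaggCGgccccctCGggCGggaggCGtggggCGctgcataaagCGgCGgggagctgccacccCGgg

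Interferon-stimulated genes encode antiviral effectors and are switched on through STAT and IRF factors. Of 44 tested, 6 rose and none fell, where 0.645% of all genes tested were called higher. The median log2 change of the list was 0.26 against 0.0075 over all genes tested. The list's median was 0.16 under decitabine alone and -0.17 under doxorubicin alone, each against the same vehicle libraries. OASL, an oligoadenylate synthetase-like sensor regulator, was at 24.76, 25.74, 15.94 and 20.41 CPM under the combination and at 5.1, 9.344, 4.887 and 7.756 CPM under vehicle (log2 change 1.67, SE 0.32, edgeR adjusted p 0.00723). IFIT2, which binds viral RNA, was at 59.02, 62.09, 46.41 and 50.82 CPM against 19.94, 22.38, 27.27 and 27.83 CPM (1.17, edgeR adjusted p 0.00396). IFIT3, its partner, was at 213.9, 194.9, 177.8 and 163.3 CPM against 76.27, 108.6, 78.45 and 105.6 CPM (1.02, edgeR adjusted p 0.00968). In all 3 genes combination 1 and 2 held the 2 highest values, and no vehicle library reached the lowest combination library.

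ISG20, an exonuclease that degrades viral RNA, rose from 14.52 ± 3.45 to 29.63 ± 2.43 CPM. HERC5, the ligase that attaches ISG15 to proteins, was at 46.19 ± 10.5 against 27.56 ± 1.58 CPM, and RTP4, a receptor transporter protein that is induced by interferon, at 2.153 ± 1.03 against 0.3404 ± 0.396 CPM. OASL, IFIT2 and ISG20 were called in all 8 fits that left out 1 library. IFIT3 lost its call without vehicle 3 (adjusted p 0.051), HERC5 kept it only without combination 3 (highest adjusted p 0.181), and RTP4 kept it only without combination 3 or vehicle 4 and fell below the count filter without combination 1 or 4. RTP4 was thus tested only because combination libraries, where it was high, carried it past the filter, so its call adds no support to the count of this list. With 1 library left out, 3 to 6 members of the list were called and its median ran from 0.17 without combination 1 to 0.38 without vehicle 4. None of 16 tested genes of the separate nucleic acid sensor list was called, where 1.03% of all genes tested were. The 2 of highest level there were MAVS (141.9 ± 20.9 against 172.2 ± 12.3 CPM, log2 change -0.28) and IFI16 (159.1 ± 16.1 against 142.3 ± 12.9 CPM, 0.16).

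The word GAAANNGAAA, the core of the interferon-stimulated response element, was searched on either strand in the 250 bases before each start, a match on the other strand reading TTTCNNTTTC. It was found in 22 of 36 matched tested members of the interferon list (61.1%), in 7 of 57 matched called higher genes (12.3%), in 1 of 40 matched called lower genes (2.5%) and in 2.35% of matched tested genes. The sets overlap: IFIT3, HERC5, ISG20 and RTP4 are on the interferon list and among the 7 called higher genes with the word. The share among called higher genes is therefore not separate from the calls in that list. Overlapping matches were counted separately. Upstream sequences of 4 genes that rose are printed with the matches in capitals: IFIT3 (chr10:89327747-89327996, + strand, 2 matches), HERC5 (chr4:88456869-88457118, + strand, 3 matches), ISG20 (chr15:88638766-88639015, + strand, 1 match) and TNFSF10 (chr3:172523431-172523680, - strand, 1 match), the last being a death ligand described with the TNF family. A match is a run of letters and not a measured binding site.
IFIT3: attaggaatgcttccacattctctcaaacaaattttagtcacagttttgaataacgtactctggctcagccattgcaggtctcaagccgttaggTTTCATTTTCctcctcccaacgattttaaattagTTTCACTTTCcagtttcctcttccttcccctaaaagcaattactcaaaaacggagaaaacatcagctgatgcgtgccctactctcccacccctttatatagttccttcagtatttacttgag
HERC5: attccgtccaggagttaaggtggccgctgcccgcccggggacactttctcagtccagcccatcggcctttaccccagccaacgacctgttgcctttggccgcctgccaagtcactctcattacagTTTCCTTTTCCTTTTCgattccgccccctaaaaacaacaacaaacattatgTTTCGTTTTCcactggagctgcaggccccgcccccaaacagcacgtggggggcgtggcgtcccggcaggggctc
ISG20: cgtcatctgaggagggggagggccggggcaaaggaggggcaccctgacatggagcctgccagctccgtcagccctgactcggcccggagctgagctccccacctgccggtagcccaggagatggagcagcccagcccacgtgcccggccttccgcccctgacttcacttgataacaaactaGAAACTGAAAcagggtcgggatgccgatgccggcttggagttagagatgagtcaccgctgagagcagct
TNFSF10: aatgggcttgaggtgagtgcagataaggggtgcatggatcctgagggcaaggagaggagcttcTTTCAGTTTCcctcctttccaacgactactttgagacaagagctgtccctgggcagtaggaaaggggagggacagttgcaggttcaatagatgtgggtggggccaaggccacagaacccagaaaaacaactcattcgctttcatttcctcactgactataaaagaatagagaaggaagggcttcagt

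HLA class I molecules display peptides that the immunoproteasome cuts and the TAP transporter delivers. Of 16 genes tested in this list, 3 rose and none fell, where 0.645% of all genes tested were called higher. The list's median log2 change was 0.45 (0.19 under decitabine alone, 0.03 under doxorubicin alone). With 1 library left out, 1 to 3 of them were called. HLA-B was at 1155, 1187, 1118 and 1324 CPM under the combination and at 440, 496.5, 378.4 and 722.3 CPM under vehicle. Its groups lay far apart, with a log2 change of 1.23 (SE 0.20, edgeR adjusted p 0.00173) that was called in all 8 fits leaving out 1 library. TAP1, a subunit of the peptide transporter, was at 22.41 ± 2.33 against 13.22 ± 1.35 CPM, and PSMB9, an immunoproteasome subunit, at 26.7 ± 4.59 against 14.36 ± 2.65 CPM. TAP1 kept its call only without combination 4 (highest adjusted p 0.108), and PSMB9 lost it in every fit that left out 1 library (highest 0.142).

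TAP1 and PSMB9 are divergent neighbours: the 250 bases before TAP1 (chr6:32853705-32853954, - strand) and before PSMB9 (chr6:32853942-32854191, + strand) overlap, and the TAP1 window holds 2 matches to the word and that of PSMB9 none. The TAP1 window is shown with the matches in capitals.
TAP1: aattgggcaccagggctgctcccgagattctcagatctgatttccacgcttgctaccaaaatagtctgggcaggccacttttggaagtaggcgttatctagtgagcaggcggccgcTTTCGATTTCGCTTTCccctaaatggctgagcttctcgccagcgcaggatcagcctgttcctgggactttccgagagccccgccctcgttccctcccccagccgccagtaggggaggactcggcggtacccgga
The related class I gene HLA-C (259.2 ± 39.1 against 161.6 ± 39.3 CPM, log2 change 0.68, edgeR adjusted p 0.0504) did not pass, nor did B2M, the class I light chain (0.34, edgeR adjusted p 0.126). HLA class I genes are near-identical in sequence, so reads could have been divided among them. None of 8 tested HLA class II genes was called, where 1.03% of all genes tested were. CD74, the invariant chain, was at 64.4 ± 13.4 against 55.53 ± 17.2 CPM.

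NF-kB is a transcription factor family that drives inflammatory cytokines, adhesion molecules and survival genes. Of 23 genes tested, 3 rose and none fell, where 0.645% of all genes tested were called higher. A log2 change above 0 was found for 21 of them, and for 6866 of all 13495 genes tested. The list's median was 0.77 (0.15 under decitabine alone and 0.31 under doxorubicin alone). With 1 library left out, 1 to 3 were called and the median ran from 0.67 to 0.99. ICAM1, an adhesion molecule for leukocytes, was at 36.68, 55.02, 39.35 and 35.83 CPM under the combination and at 11.13, 13.04, 15.69 and 22.81 CPM under vehicle (log2 change 1.41, SE 0.27, edgeR adjusted p 0.00852). SOD2, the mitochondrial superoxide dismutase, was at 54.93, 55.61, 35.51 and 38.74 CPM against 21.33, 19.99, 11.32 and 19.85 CPM (1.34, SE 0.26, edgeR adjusted p 0.00968). The groups of both genes stood apart, and SOD2 lost its call without vehicle 3 (adjusted p 0.0566), the library with the lowest value. CSF3, the granulocyte growth factor G-CSF, was at 2.161 to 4.166 CPM against 0.2572 to 0.6519 CPM (2.79, edgeR adjusted p 0.0356), a call kept only without combination 3 (highest adjusted p 0.12). The cytokines IL1B (log2 change 2.06, edgeR adjusted p 0.0631) and CXCL8 (1.35, edgeR adjusted p 0.118) did not pass.

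TNF family ligands signal through receptors that can carry death domains. Of 16 tested genes of the family, 2 rose, both ligands, and none fell, where 0.645% of all genes tested were called higher. Besides CD70, TNFSF10, the death ligand TRAIL, was at 13.78, 18.67, 15.94 and 17.5 CPM under the combination and at 3.478, 3.477, 6.173 and 5.247 CPM under vehicle. The lowest combination library was above the highest vehicle library by more than the range of either group (log2 change 1.84, SE 0.33, edgeR adjusted p 0.00396), and the call held in all 8 fits leaving out 1 library. The TRAIL receptors TNFRSF10A (log2 change 0.14, edgeR adjusted p 0.566) and TNFRSF10B (0.70, edgeR adjusted p 0.315) and FAS (1.17, edgeR adjusted p 0.174) were not called.

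Of 19 BCL2 family genes, which set the threshold of mitochondrial apoptosis, 2 rose and none fell. Over all genes tested, 0.645% were called higher. PMAIP1, the pro-apoptotic BH3-only protein NOXA, was at 432.5, 456.3, 389 and 416.6 CPM against 203.3, 261.2, 284.7 and 325.5 CPM (log2 change 0.66, SE 0.13, edgeR adjusted p 0.00998), without overlap; the call was lost without vehicle 1 (adjusted p 0.0537). BCL2L13 was at 25.99 ± 1.52 against 15.11 ± 3.19 CPM (0.78), a call lost without combination 2 or vehicle 3 (highest adjusted p 0.0841). PMAIP1 was also the only one called of 26 tested p53 targets. CDKN1A, the cell cycle inhibitor p21 and a standard p53 target, was at 67.33 ± 5.02 against 55.48 ± 13.7 CPM (log2 change 0.28, edgeR adjusted p 0.431).

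**Figure D3:**
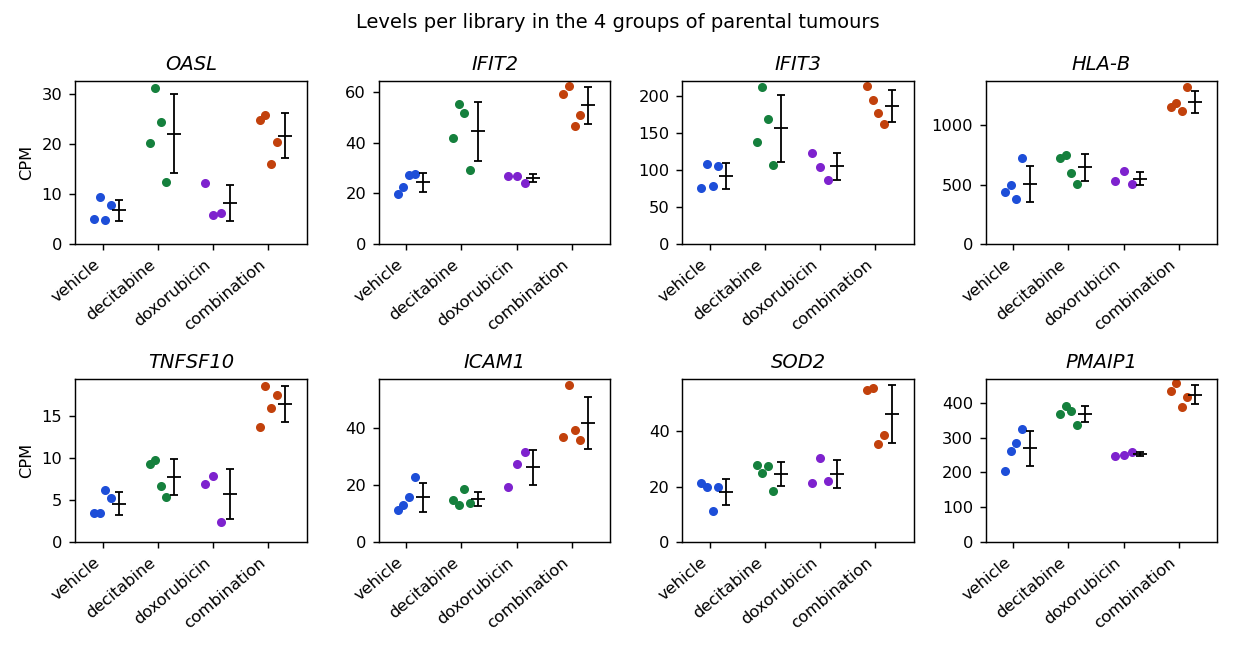
CPM of 8 genes (y axis, from 0) in each parental library given vehicle, decitabine, doxorubicin or the combination (x axis), with group mean and SD beside the points. OASL, IFIT2 and IFIT3 lie near the combination level in the decitabine group, whereas HLA-B, TNFSF10, ICAM1 and SOD2 are higher under the combination than under decitabine alone.

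Single members of further lists rose, where 0.645% of all genes tested were called higher. TRIB3, a pseudokinase induced by the integrated stress response, rose from 6.325 ± 1.40 to 11.34 ± 1.34 CPM (0.84) and kept its call only without vehicle 4 (highest adjusted p 0.162). It was 1 of 26 tested genes of the unfolded protein and integrated stress responses. IL7R, the interleukin-7 receptor and a lymphoid marker, rose from 3.534 ± 1.55 to 8.633 ± 1.71 CPM (1.28), with its call kept only without combination 4 or vehicle 1 (highest adjusted p 0.119). FKBP10 was the one member called of 24 tested collagen and collagen-processing genes.

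Genes that fell did so by less. PURPL, a p53-regulated long non-coding RNA, was at 1.862, 2.161, 4.439 and 2.5 CPM under the combination and at 10.43, 6.084, 10.03 and 6.388 CPM under vehicle (log2 change -1.58, SE 0.32, edgeR adjusted p 0.0101). FANCB, a subunit of the Fanconi anaemia ligase complex that repairs DNA crosslinks, was at 1.49, 2.161, 2.825 and 1.458 CPM against 6.028, 5.432, 9.003 and 3.194 CPM (-1.56, SE 0.36, edgeR adjusted p 0.0282). HMGN5, a nucleosome-binding protein, was at 56.97, 54.63, 58.72 and 54.16 CPM against 111.3, 109.1, 114.5 and 82.35 CPM (-0.89, SE 0.16, edgeR adjusted p 0.00396). Its 4 combination values lay within a narrow band well below all vehicle values. HMGN5 was the only one of the 12 leading lower genes called in all 8 fits that left out 1 library.

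The other leading lower genes were STK32A (2.305 ± 0.857 against 6.597 ± 0.648 CPM), GPR17 (2.332 ± 0.745 against 5.711 ± 2.55 CPM), the microtubule-associated EML1 (5.428 ± 0.871 against 11.83 ± 0.926 CPM), the transcription factor NFATC4 (10.31 ± 1.01 against 21.4 ± 3.88 CPM) and the adhesion molecule NEGR1 (13.89 ± 4.13 against 26.47 ± 4.80 CPM). CLEC2D, a ligand of the natural killer receptor CD161, fell from 12.2 ± 1.37 to 6.555 ± 1.25 CPM, MEGF9 from 16.82 ± 5.36 to 9.22 ± 0.672 CPM, MMP16, a membrane-bound matrix metalloprotease, from 17.61 ± 1.09 to 9.886 ± 1.59 CPM, and the phospholipase PLCE1 from 27.31 ± 3.55 to 15.82 ± 2.85 CPM. Leaving out single libraries ended these calls in 1 to 8 of the 8 fits: PURPL without combination 1 (adjusted p 0.0506), FANCB without combination 1, 2 or 4 or vehicle 1 or 3 (highest 0.124), and EML1 in all 8 (highest 0.0887). STK32A lost its call without combination 2 or 4 (highest 0.0585), GPR17 without combination 1, 2 or 4 or vehicle 1 (highest 0.124), NFATC4 without combination 1 or 2 or vehicle 3 (highest 0.0618), NEGR1 without combination 3 or 4 or vehicle 1 or 2 (highest 0.0812) and CLEC2D without combination 2 or 4 or vehicle 1 (highest 0.0757). MEGF9 kept its call only without vehicle 1 or 2 (highest 0.163), MMP16 only without combination 4 or vehicle 2 (highest 0.109), and PLCE1 lost it without combination 1 or 2 or vehicle 1, 2 or 3 (highest 0.148).

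The called lower genes covered longer stretches of genome than the called higher genes. By GENCODE 29, the median span from start to end was 87691 bases for the 52 lower genes, 25583 bases for the 87 higher genes and 29557 bases for all genes tested. Of the lower genes 37 (71.2%) spanned over 50000 bases, against 27.6% of the higher genes and 35.2% of genes tested. Over all genes tested, the median log2 change was 0.03 for spans up to 10000 bases, 0.06 up to 30000, 0.01 up to 100000, -0.08 up to 300000 and -0.16 for the 511 genes above 300000 bases. Doxorubicin alone gave medians of 0.08, 0.08, 0.0002, -0.07 and -0.11 in those bins, and decitabine alone -0.05, 0.03, 0.04, -0.01 and -0.12, against the same vehicle libraries. With 1 library left out the value of the longest bin ran from -0.17 to -0.14. The lower genes were also better expressed (median 73.7 CPM against 8.18 CPM for the higher genes and 20.6 CPM for genes tested), and the part of expression level in the difference of span was not tested.

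**Figure D4:**
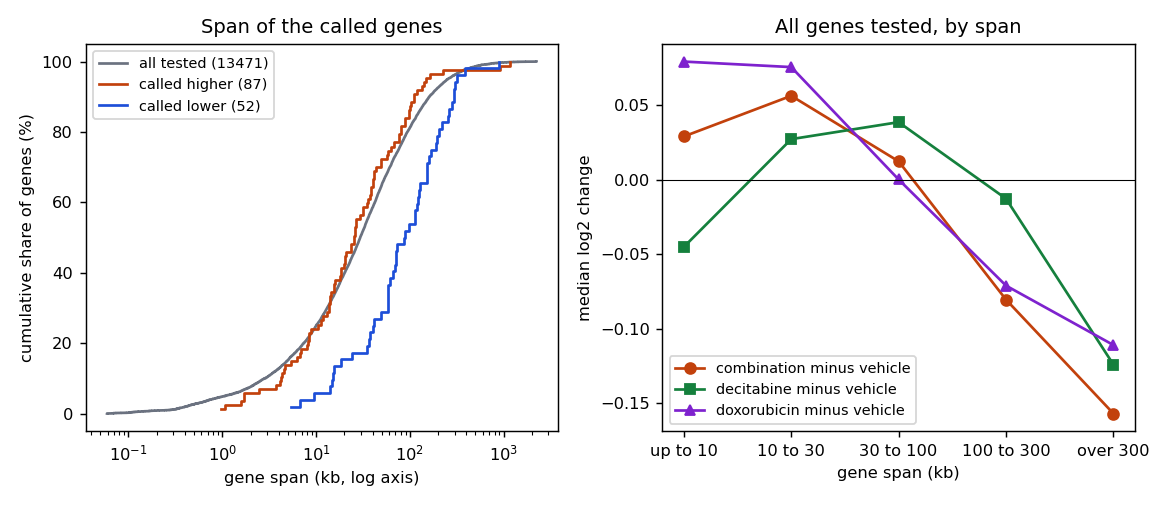
Left, cumulative share of genes (y axis, %) by gene span (x axis, kb, log scale) for called lower, called higher and all tested genes with a position; the curve of the called lower genes lies to the right. Right, median log2 change over all genes tested in 5 bins of span (x axis, kb) for the combination, decitabine alone and doxorubicin alone, each against vehicle; all 3 medians are below 0 in the longest bin.

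Examples of long lower genes with wide roles, chosen after their values were seen, were NIPBL, the cohesin loader, at 206.7, 226.2, 237.5 and 218.1 CPM against 318.5, 269.9, 335.2 and 294.5 CPM (log2 change -0.46, edgeR adjusted p 0.0312), and BIRC6, a giant ubiquitin ligase that restrains apoptosis, at 57.77 to 62.28 against 80.83 to 99.22 CPM (-0.56, edgeR adjusted p 0.0397). RIF1, which steers double-strand break repair, was at 129.5 ± 20.6 against 186.5 ± 24.4 CPM (-0.53), and the scaffold DLG1 at 70.55 ± 7.19 against 116 ± 28.2 CPM (-0.72). ENPP1, an ectoenzyme that hydrolyses nucleotides, was the lower gene of highest level named here, at 620.2 ± 47.4 against 1071 ± 133 CPM (-0.79). These 5 calls were each lost in 5 to 7 of the 8 fits that left out 1 library (highest adjusted p 0.126 for NIPBL, 0.119 for BIRC6, 0.166 for RIF1, 0.123 for DLG1 and 0.138 for ENPP1); all 5 lost them without combination 1 or 2 or vehicle 1 or 3. NIPBL and RIF1 also lost them without combination 4, DLG1 without combination 3, BIRC6 without combination 3 or 4 or vehicle 4, and ENPP1 without combination 3 or 4 or vehicle 2. Under doxorubicin alone their means were 232.8, 63.41, 129, 71.11 and 853.3 CPM and under decitabine alone 278.4, 87.52, 214.6, 110.6 and 785 CPM, in the order given.

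No gene of the drugs' own pathways was called. Over all genes tested 1.03% were called, so lists of such sizes can hold none without differing from other genes. Among 22 tested genes of DNA methylation, DNMT1, the maintenance methyltransferase that decitabine traps, was at 211.7 ± 22.2 against 229.1 ± 38.9 CPM (log2 change -0.11, edgeR adjusted p 0.688), DNMT3A at 13.57 ± 1.93 against 16.08 ± 2.89 CPM and DNMT3B at 8.673 ± 3.24 against 8.867 ± 2.02 CPM. Among 20 genes of decitabine uptake, activation and breakdown the log2 changes ran from -0.77 to 0.56 with a median of -0.02. Among 16 genes of anthracycline handling and topoisomerases, TOP2A was at 758.3 ± 133 against 850.3 ± 128 CPM (-0.17, edgeR adjusted p 0.553), TOP2B at 168.3 ± 6.58 against 186.9 ± 16.0 CPM, and TOP1 at 248.1 ± 18.0 against 336.7 ± 29.5 CPM (-0.44, edgeR adjusted p 0.0707).

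Cell cycle, repair and metabolic lists also held no called gene, where 1.03% of all genes tested were called. Their median log2 changes were -0.24 for 34 mitosis genes, -0.14 for 35 DNA replication genes, -0.13 for 29 damage repair genes and -0.17 for 26 cholesterol synthesis genes, and 0.32 for 33 hypoxia and glycolysis genes and 0.13 for 32 ribosomal protein genes. With 1 library left out these medians moved: that of mitosis ran from -0.38 without vehicle 4 to -0.13 without vehicle 1, with at most 1 gene called, and that of DNA replication from -0.22 to -0.07 in the same fits. Damage repair ran from -0.21 without vehicle 4 to -0.10 without vehicle 3, and cholesterol synthesis from -0.23 without vehicle 4 to -0.11 without vehicle 1. Hypoxia and glycolysis ran from 0.13 without combination 2 to 0.41 without combination 3, and ribosomal proteins from 0.08 without combination 2 to 0.21 without vehicle 4. Within them BUB3, a spindle checkpoint protein, was at 632.7 ± 36.0 against 626.9 ± 61.5 CPM, and PGK1, a glycolytic kinase, at 2423 ± 374 against 1911 ± 385 CPM. The vimentin gene VIM, the mesenchymal marker of highest level, was at 2745 ± 328 against 2564 ± 249 CPM. No member was called of the fixed lists of nucleic acid sensor, oxidative phosphorylation, NRF2, metallothionein, immediate-early, metalloprotease, epithelial, mesenchymal, tubulin, imprinted and germline genes, whose medians lay between -0.08 and 0.47. MMP16, called lower, is not on the metalloprotease list, and FANCB and RIF1, repair genes called lower, are not on the damage repair list.

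**Figure D5:**
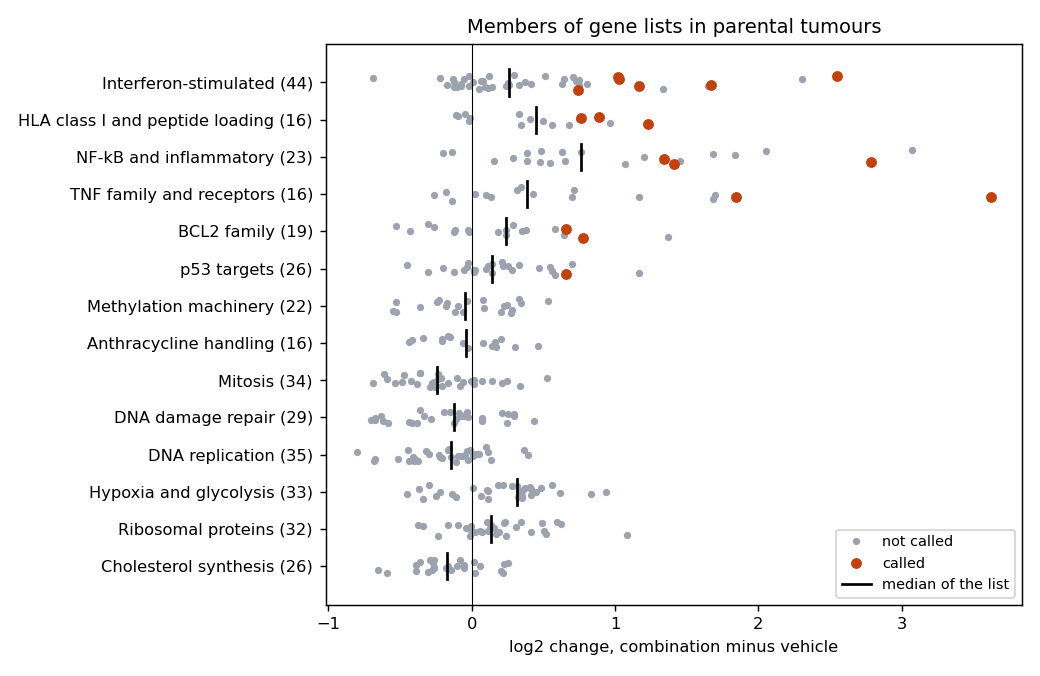
Fitted log2 change between combination and vehicle tumours (x axis) of each tested member of 14 gene lists (rows, with the number of members tested), with called members in orange and the median of each list as a black line. Every called member shown lies right of 0, in the lists of interferon, HLA class I, NF-kB, TNF, BCL2 and p53 genes.

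Markers of cells other than the tumour cell line were followed because mouse host tissue is part of a xenograft. The 10 fibroblast markers summed to 362 to 776 CPM under the combination and 803 to 1250 CPM under vehicle, carried by the collagen genes COL1A1 (450.1 ± 121 against 848.6 ± 193 CPM) and COL3A1 (96.3 ± 66.6 against 170.4 ± 56.1 CPM), and none of the 6 tested was called. The 9 endothelial markers summed to 157 to 196 against 120 to 150 CPM with VWF at 0, the 11 myeloid markers to 92.7 to 147 against 73 to 112 CPM with ITGAM and TYROBP at 0, and the 8 lymphoid markers to 7.08 to 11.1 against 3.42 to 6.72 CPM with CD3E, CD4, MS4A1, NKG7 and CD2 among those at 0. Other markers of these lists had counts: over the group, LAPTM5 had 1600 under the combination and 938 under vehicle, CTSS 247 and 103, PECAM1 335 and 218, and PTPRC 67 and 46. TEK had 48 and 12, FCER1G 25 and 3, and AIF1 23 and 6. These counts are not scaled for depth, and every combination library was deeper than every vehicle library. Members of the same lists also went the other way or stayed level. TIE1 was at 10.9 CPM under the combination against 18.3 CPM under vehicle, CSF1R at 1.36 against 2.56, CD14 at 0.153 against 0.288 and CD68 at 24.7 against 25.5. ESAM, at 133 against 98.1 CPM, made up most of the endothelial sum. The part of cells with these markers in the rise of INPP5D, GMFG, CD93 and IL7R, genes known from blood or endothelial cells, was not tested. The part of the lower collagen level, or of the higher endothelial and myeloid sums, in the other results was not tested.

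Compared with decitabine alone, 895 genes (6.63% of those tested) were called, 369 higher and 526 lower under the combination. Among genes of proliferation, 24 of 34 mitosis genes (median log2 change -0.73), 14 of 35 replication genes (-0.57) and 12 of 29 repair genes (-0.43) fell, and none of these lists held a gene that rose. TOP2A, the mitotic topoisomerase, was at 758.3 ± 133 CPM under the combination and 1226 ± 167 CPM under decitabine (log2 change -0.69, edgeR adjusted p 0.00668), with 850.3 ± 128 CPM under vehicle. DNMT1 was at 211.7 ± 22.2 against 332.6 ± 29.6 CPM (-0.65, edgeR adjusted p 0.00827). FAM111B, a protease gene of S phase (-1.79), and ESCO2, a cohesin acetyltransferase of S phase (-1.65), led the lower genes with FANCB (-1.72), FBN2 (-1.75) and MTRNR2L1 (-2.14). TOP2A, DNMT1, FAM111B, ESCO2 and FANCB were called in all 8 fits that left out 1 library of the 2 groups, whereas FBN2 and MTRNR2L1 kept their calls only without decitabine 1 or 2 (highest adjusted p 0.238 and 0.17). The median over mitosis genes against vehicle was -0.24 under the combination and 0.60 under decitabine alone.

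On the higher side against decitabine, 6 of 23 NF-kB genes, 8 of 33 hypoxia and glycolysis genes (median log2 change 0.75) and 4 of 16 HLA class I genes rose, and none fell. Over all genes tested, 6.63% were called in either direction. EGLN3, an oxygen sensor induced by hypoxia, was at 14.67 ± 4.38 against 4.133 ± 3.00 CPM (1.85, edgeR adjusted p 0.0093). SLC6A8 (1.97), CYTIP (1.95), the small nuclear RNA RNU4-2 (1.80) and the immediate-early gene FOS (1.75) were the others with the greatest increases. CYTIP was at 7.582 CPM under the combination and 11.58 CPM under vehicle, FOS at 34.03 and 39.23 CPM, and RNU4-2 at 25.57 and 21.55 CPM. Under vehicle EGLN3 was at 8.221 CPM and SLC6A8 at 1.605 CPM. The median over hypoxia and glycolysis genes against vehicle was 0.315 under the combination and -0.51 under decitabine alone. HLA-B was at 646 ± 113 CPM under decitabine (log2 change of the combination over decitabine 0.89, edgeR adjusted p 0.0092), TNFSF10 at 7.763 ± 2.13 CPM (1.07, edgeR adjusted p 0.0327), ICAM1 at 14.97 ± 2.46 CPM (1.48, edgeR adjusted p 0.0034) and SOD2 at 24.67 ± 4.38 CPM (0.90, edgeR adjusted p 0.032). By contrast FKBP10 (7.971 ± 2.96 CPM under decitabine), INPP5D (4.05 ± 0.513), CD70 (5.998 ± 2.71) and OASL (22.12 ± 7.83) did not differ between the treatments beyond the test's threshold (edgeR adjusted p 0.358, 0.422, 0.537 and 0.964). SLC6A8 and ICAM1 were called in all 8 fits that left out 1 library. Without decitabine 3 the calls of CYTIP, EGLN3, RNU4-2, FOS, HLA-B, TNFSF10 and SOD2 were lost (highest adjusted p of each 0.0847, 0.0551, 0.062, 0.114, 0.0521, 0.134 and 0.121). Those of RNU4-2, FOS, TNFSF10 and SOD2 were also lost without combination 2, that of CYTIP without combination 1, that of TNFSF10 without combination 4 or decitabine 4, and that of SOD2 without combination 1 or decitabine 2 or 4. The total count of calls was 210 without decitabine 3, 579 without decitabine 4, 525 without combination 1 and 364 without combination 2. Without decitabine 3, 51 genes were called higher and 159 lower, against 369 and 526 with all libraries. That library scored 35.93 on the second principal component of the parental libraries, against 8.71 to 16.44 for the other decitabine libraries. The counts per list against decitabine, in both directions, are given for the full fit only.

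Compared with doxorubicin alone, 41 genes (0.304% of those tested) were called, 35 higher and 6 lower under the combination. FKBP10 was at 0.2883 ± 0.0860 CPM in the 3 doxorubicin libraries (log2 change 5.21), CD70 at 0.5812 ± 0.511 CPM (3.74), INPP5D at 0.462 ± 0.289 CPM (3.61), AADACP1 at 1.13 ± 0.312 CPM (2.26) and TCN1 at 4.229 ± 1.92 CPM (2.19). HLA-B was at 552.8 ± 58.4 CPM (1.11, edgeR adjusted p 0.0183), PMAIP1 at 252.2 ± 5.79 CPM (0.75, edgeR adjusted p 0.0124), and IFIT2 and HERC5 were the 2 of 44 interferon-stimulated genes that rose. Lower were NFATC4 (-1.04), AP4S1, a subunit of an endosomal adaptor complex (-0.95), the matrix gene CCDC80 (-0.76) and ANXA6, a calcium-dependent membrane-binding protein (-0.55). FKBP10 and INPP5D were called in all 7 fits that left out 1 library, and CD70 lost its call without doxorubicin 2 (adjusted p 0.0534). TCN1 lost it without doxorubicin 2 or 3 (highest 0.0843), AADACP1 and PMAIP1 without combination 2 or any doxorubicin library (highest 0.113 and 0.0812), and HLA-B and AP4S1 in those fits and without combination 4 (highest 0.14 and 0.0753). IFIT2 and HERC5 kept their calls only without combination 3 (highest 0.197 and 0.286), and NFATC4 in none of the fits (highest 0.226). CCDC80 lost its call without combination 1, 3 or 4 or doxorubicin 3 (highest 0.372) and ANXA6 without combination 1 or 2 or doxorubicin 1 or 3 (highest 0.278). The total count of calls was 7 without doxorubicin 3, 15 without doxorubicin 1 or 2 or combination 2, and 18 without combination 4. These comparisons share the combination libraries with the comparison against vehicle.

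The interaction term asked whether the effect of both drugs together departed from the sum of their separate log2 effects, and 1 gene (0.00741% of those tested) was called. ITGA10, an integrin chain that binds collagen, was at 39.47, 38.12, 52.06 and 51.03 CPM under the combination, 22.97, 26.27, 11.51 and 27.62 CPM under decitabine, 31.93, 44.56 and 20.33 CPM under doxorubicin and 42.43, 53.67, 64.05 and 66.16 CPM under vehicle. All decitabine libraries and 2 of the 3 doxorubicin libraries lay below every combination library, and the interaction was 1.84 on the log2 scale (SE 0.32, edgeR adjusted p 0.0459). Among genes of the comparison with vehicle the interaction was not called, for example for HLA-B (0.77, SE 0.30, edgeR adjusted p 0.315), ICAM1 (0.75, SE 0.40, edgeR adjusted p 0.502), TNFSF10 (0.72, SE 0.50, edgeR adjusted p 0.61) and HMGN5 (-0.62, SE 0.24, edgeR adjusted p 0.305). An unadjusted p under 0.05 was reached by 1552 genes. The single call was lost without combination 1, 2, 3 or 4, decitabine 1, 2 or 3, doxorubicin 1 or 3, or vehicle 2, 3 or 4, each leaving 0 calls, and 2 genes were called without doxorubicin 2.

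The response to the combination was also set against that of the paclitaxel-resistant line, whose tumours differed in the number of cells injected and in the day treatment began, so that these cannot be told apart from the line. The responses differed in 3 genes (0.0222% of those tested). NUP93, a scaffold protein of the nuclear pore, was at 171.4 ± 13.6 against 126.1 ± 10.7 CPM under vehicle in parental tumours, where it rose (log2 change 0.44, edgeR adjusted p 0.0161; call lost without vehicle 3). In resistant tumours it was at 127.5, 99.82 and 130.6 CPM under the combination and 143.8 to 160.5 CPM under vehicle, and the difference of responses was 0.79 (SE 0.14, edgeR adjusted p 0.0455). MMP16 fell in parental tumours and in resistant tumours was at 6.711, 7.976 and 7.436 CPM against 3.156 to 4.748 CPM (difference -1.66, SE 0.31, edgeR adjusted p 0.0465). ITGBL1, an integrin beta-like secreted protein, was at 2.291 to 3.733 CPM against 0.8692 to 5.1 CPM in parental tumours and at 5.412, 1.45 and 4.019 CPM against 0, 0, 0 and 0.226 CPM in resistant tumours (edgeR adjusted p 0.0455). All 3 calls were lost without parental combination 1 or 2, parental vehicle 3 or resistant vehicle 1, 2 or 4. NUP93 and MMP16 lost theirs without resistant combination 2, MMP16 without parental vehicle 2 or 4, and ITGBL1 without parental combination 4, resistant combination 1 or resistant vehicle 3 (highest adjusted p 0.139 for NUP93, 0.172 for MMP16 and 0.116 for ITGBL1).

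Leading genes of the parental comparison had these values in the resistant line, which was fitted with its own vehicle libraries. FKBP10 had a log2 change of 3.47, INPP5D of 3.44, CD70 of 1.91, ALDH1A3 of 1.81 and CDH13 of 2.37 there, each called. Values for HLA-B (0.55, edgeR adjusted p 0.217), TNFSF10 (1.10, edgeR adjusted p 0.149) and PMAIP1 (0.24, edgeR adjusted p 0.40) did not pass in the resistant line, and the test of the difference between the lines was not called for these 3 genes either. The count of the line difference was 0 without combination 1 or 2 or vehicle 3 of the parental line or vehicle 1, 2 or 4 of the resistant line, 5 or 6 without resistant vehicle 3 or resistant combination 1, 14 without parental vehicle 1, 27 without parental combination 3 and 273 without resistant combination 3.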

How the data were processed

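The authors deposited raw counts per gene, whole numbers that were not normalised, in 1 table of 29 libraries. The genome build GRCh38.p10 and the tools cutadapt, featureCounts, STAR 2.7.3a and DESeq2 are listed in the submitters' processing notes; the annotation release, the strand setting and the handling of mouse reads are not given in the sources used here, so genes with near-identical copies or overlapping partners are uncertain and mouse reads that align to human sequence would be counted. Per the labels' protocols, the QuantSeq forward kit of Lexogen was used. Which mouse each library came from is not in the labels, and cells were injected on both sides, so a mouse may have given more than 1 library and p-values cover only the spread between these samples. Every pair of libraries within the 2 groups compared differed by more than counting noise (chi-square over degrees of freedom at least 4.91).

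The filter filterByExpr (at least 10 counts, total of at least 15) left 13495 of 58302 genes, which held 99.72% of counts. Library sizes were scaled with TMM factors (0.896 to 1.07), and all 29 libraries entered 1 robust quasi-likelihood fit with 8 group means in edgeR 4.0.16 under R 4.3.3 (common dispersion 0.0304), with Benjamini-Hochberg adjustment within each contrast. All adjusted p-values are from this test unless another tool is named, and means are given ± SD with n = 4 unless stated. Each SE was derived from the same test, as the size of the log2 change over the square root of its F statistic. Alternatives were other scalings, filters, DESeq2 1.42.0, a fit of only the groups compared, a replicate block and leaving out each library. A fit without the 2 libraries that stood apart was added after seeing the data. These were vehicle 3 of the parental line and decitabine 2 of the resistant line. They scored 34.64 and 43.09 on the second principal component of all 29 libraries. Replicate numbers were not used to pair libraries in the main fit, because the labels do not tie them to mice. Deviations of combination and vehicle libraries of the same number correlated at 0.232, 0.146, 0.405 and -0.05. Libraries of unequal number were not compared, so these values cannot show whether the numbers pair libraries. On simulated counts for the comparison with vehicle (13361 genes), the fit recovered 58 of 98 genes changed 2-fold and 95 of 100 changed 4-fold. The changed genes were drawn from those above 1 CPM under vehicle, and no simulated library was made to stand apart.

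Genes named were the 12 greatest called changes per direction with a mean of 5 CPM or more in the higher group and no overlap between groups, up to 4 called members of each of 41 gene lists (otherwise the 2 of highest level), the drug targets and CDKN1A, and 5 per direction for the other contrasts. Further genes were named after their values were seen: NRIP3, CD93, SLC7A7, TMEM204, SIX3, BIRC7, LINC02154, C15orf48, LRRC17, HERC5, RTP4, NOL4L, CSPG4, ALDH1A3, CDH13, TXNIP, NIPBL, BIRC6, RIF1, DLG1, ENPP1, HLA-C, B2M, IL1B, CXCL8, FAS, the TRAIL receptors and ITGBL1. The comparison, its members and the lists were chosen with earlier results of these data known. Some genes are not reported here.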

Additional observations from a re-analysis of the deposited data

Results flagged for a closer look

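In 170 groups of 4 libraries checked, 10 values lay far from the other 3 of their group by Dixon's criterion, which chance gives in about 1 group in 20. Among vehicle libraries these were GPR17 at 9.505 CPM in vehicle 1 (high), HMGN5 at 82.35 CPM in vehicle 4 (low), SOD2 at 11.32 CPM in vehicle 3 (low), EGLN3 at 5.332 CPM in vehicle 1 (low), LRRC17, a leucine-rich repeat protein, at 0.6844 CPM in vehicle 4 (high), ALDH1A3 at 5.475 CPM in vehicle 4 (high) and FOS at 56.8 CPM in vehicle 4 (high). Among combination libraries they were SIX3 at 0.3724 CPM in combination 1 (low), LRRC17 at 4.519 CPM in combination 2 (high) and CSPG4 at 33.5 CPM in combination 3 (high). LRRC17, HMGN5, ALDH1A3 and CSPG4 do not overlap between the groups with these values included.

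Effects that differed between settings by a test of the difference itself were ITGA10 for the 2 drugs together (1.84 on the log2 scale), and NUP93 (0.79), MMP16 (-1.66) and ITGBL1 (-5.06, a fitted value that depends on the prior count, since 3 of 4 resistant vehicle libraries had none) for the 2 lines.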

How the results depend on the processing

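The number of genes called against vehicle (139) was 884 without a low-count filter, 342 with DESeq2, 64 in a fit of only the 2 groups, 85 without the 2 libraries that stood apart, and 53 to 154 with 1 library left out. Against decitabine (895) it was 210 to 1151 with 1 library left out, and against doxorubicin (41) it was 305 without the filter, 87 with DESeq2, 65 without the 2 libraries, and 7 to 34 with 1 left out. The interaction (1) gave 311 without the filter, 73 with DESeq2, 0 with only the groups compared, 0 without the 2 libraries, and 0 to 2 with 1 left out. The line difference (3) gave 5 with RLE size factors, 1109 without the filter, 212 with DESeq2, 0 with only the groups compared, and 0 to 273 with 1 left out. With the replicate number as a block, though the labels do not say that it pairs libraries, the counts were 133, 818, 30, 2 and 1 in that order. The cause of these shifts was not tested beyond the smaller number of libraries where some were left out.

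Of the 139 genes, 49 were called in all 7 other settings of scaling, filter, tool, groups and block. Over 85 named genes and all alternatives, 1047 values stayed on their side of the threshold, 207 lost a call, 10 gained one and no called value changed sign (9 values of 3 genes that were not called did, DNMT3B, RNU4-2 and FOS, each with libraries left out); the fit of only the groups compared accounted for 21 of the lost calls and the replicate block for 4. Rescaling by RLE moved the median of all genes from 0.0075 to 0.0136. Genes below about 1 CPM rest on a few counts a library, and 4 libraries a group recovered 59.2% of simulated 2-fold changes.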
